A study of Mus musculus with 4 samples.

Results

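The genes described here serve mitochondrial protein import and quality control. Their transcripts were measured by RNA sequencing of mouse bone marrow-derived macrophages with and without PERK, the endoplasmic reticulum stress kinase encoded by Eif2ak3. The rule took every mouse symbol that starts with Tomm or Timm and a digit, together with 19 named partners, chaperones and proteases, and matched 46 symbols. Of these, 44 are annotated as protein-coding, and the tables list 15114 Entrez-numbered genes in all. The other 2, the antisense transcript Tomm6os and the pseudogene Timm29-ps1, were listed in no library. Tomm20l was also listed in none, and Timm8a2 did not exceed 0.06 FPKM, so 42 members reached the mean of 1 FPKM (fragments per kilobase of feature, scaled to the mapped fragments of the library) that was required for a test.

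PERK knockout macrophages (2 libraries, Eif2ak3 fl/fl with LysMcre) were set against PERK wild-type macrophages (2 libraries, Eif2ak3 fl/fl without Cre). All were C57BL/6 marrow cells grown for 7 days in M-CSF at 20 ng/mL and then given IL-4 at 20 ng/mL for 24 h. LysMcre expresses Cre from the lysozyme 2 locus of myeloid cells, and the wild-type libraries carry the floxed alleles but no Cre. The age and sex of the mice are not given in the sources used here, nor whether the libraries of a genotype came from separate animals, so the p-values measure only the spread between these libraries, which may be technical.

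Almost all mitochondrial proteins are encoded in the nucleus and made in the cytosol. They enter through the TOM pore of the outer membrane and are then sorted: barrel proteins by the SAM complex, cysteine-rich proteins of the intermembrane space by the MIA pathway, carriers by small TIM chaperones and TIM22, and proteins with a presequence by the TIM23 channel and its ATP-driven motor. In the matrix the presequence is cut off, chaperones fold the protein, and proteases remove what is damaged or unassembled. In other cells, PERK and the transcription factor ATF4 have been linked to this system through the chaperone gene Hspa9 and the protease gene Lonp1.

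No import, folding or protease gene differed between the genotypes past the threshold. Of 42 tested members, 0 passed the threshold (limma with Benjamini-Hochberg adjustment over all 9501 tested genes, lowest adjusted p = 0.999), against 0.0211% of all tested genes. At an unadjusted p under 0.05 there was 1 higher member, Tomm6, and 1 lower member, Tomm22, against 1.87% of all tested genes higher and 1.27% lower. The change was smaller than 1.25-fold in 39 of 42 members, a share that reached 90.9% among all tested genes. The median log2 change, knockout minus wild type, was -0.04 in the 33 import genes and -0.03 in the 6 proteases, against -0.0042 over all tested genes.

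FPKM values are given after scaling each library by its median ratio over the listed genes. The factors were 1.01 and 0.891 in knockout and 1.05 and 1.06 in wild type, so that the median gene had nearly the same level in each library. Without this scaling the median over tested genes was a log2 change of -0.14. In the deposited values 41 of 42 members lay below 0 on the log2 scale, as did 80.5% of all tested genes. After scaling 26 members lay below 0 and 16 above, where 51.2% of all tested genes lay below. Knockout replicate 2 stood apart in its make-up, since it listed 80375 features, against 48335 to 53411 in the other libraries, and held 41.1% of its FPKM on Entrez-numbered genes, against 54.8% to 58.9% in the others.

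The genotype and the cell type were checked from their own genes. Eif2ak3 measured 6.49 and 5.48 FPKM in knockout, against 10.4 and 8.38 FPKM in wild type, so its transcript was still listed in the knockout libraries, and a value for the whole gene cannot show which exons were lost. Lyz2, at the Cre locus, measured 250.6 and 225.9 FPKM in knockout, against 597 and 660 FPKM in wild type. Neither gene passed the threshold applied to the members. The log2 changes were -0.57 in Eif2ak3 (limma adjusted p = 0.999) and -1.40 in Lyz2 (limma adjusted p = 0.31). All 10 macrophage markers, Adgre1 and Csf1r among them, were listed in every library. Their summed level, which includes Lyz2 and so its difference at the Cre locus, was 2139 to 2230 FPKM in knockout and 2114 to 2891 FPKM in wild type. By log2 change, 7 of the markers lay above 0 and 3 below, Lyz2 among the latter. Each marker was lower in wild-type replicate 1 than in replicate 2. The gap was narrow in Itgam (185.8 against 190.1 FPKM) and wide in C1qa (229 against 583 FPKM) and Fcgr1 (6.93 against 31.8 FPKM). Marker lists of neutrophils, T cells, B cells, dendritic cells, erythroid cells, mast cells and fibroblasts summed to at most 2.82 FPKM in knockout and 3.49 FPKM in wild type, with Elane, Trac, Hba-a1 and Cpa3 at 0 in every library. In bulk RNA of this kind, fewer cells of a type and less RNA per cell cannot be told apart.

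The start regions of the genes are shown because the rule did not use them and many members hold the same short motif there. RefSeq (GRCm38.p6) promoter windows, 250 bases before to 50 after the start, were found for 39 of 46 symbols, of which 3 had more than 1 window, and a gene was counted where any of its windows held a motif. The core letters bound by ETS factors such as GABP, a known activator of nuclear genes for mitochondria, are CCGGAAG, searched on both strands. They occurred in 17 of the 36 tested members with a window, or 47.2%, against 23.3% of 7799 tested genes and 9.93% of all 27025 genes with a window. The median GC content of the windows was 60.0% in the members and 61.0% in tested genes. A stretch of 30 bases around the first match is given below for the member with the smallest p in each role group that held a match. Capitals mark the 7 matched letters in the orientation of the gene.

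Tomm22: agcccggctcgCTTCCGGaagacgctctgt
Mtx2: gggcggagcagCCGGAAGtgccggcgcgcg
Timm8b: tgaagcgtgaaCCGGAAGgcaggagacggt
Timm29: agctctgaccaCTTCCGGgctccactcacc
Timm23: cgcgcttcccaCTTCCGGgccgcacacagc
Grpel1: cacctcctcacCTTCCGGggctcccagaag
Pmpca: ggctcggcgggCCGGAAGccagcgccgaac
Hspd1: acgcgcggggcCTTCCGGaaggttctagaa
Yme1l1: tgacagagtccCCGGAAGaggcggagcgct

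The match began 47 bases before the start in Tomm22 (chr15:79670810-79670839, plus strand) and in Timm23 (chr14:32201920-32201949, minus strand), 25 before in Mtx2 and 12 before in Timm8b. It lay 212 bases before in Timm29, 204 in Grpel1, 145 in Hspd1, 73 in Yme1l1 and 53 in Pmpca. Each distance is from the RefSeq transcript start on which the window was drawn. In Hspd1 and Yme1l1 that start lies 311 and 1063 bases inside the gene's outermost RefSeq start, so their matches lie within the annotated gene and not upstream of it. The motif of NRF1, another activator of mitochondrial genes, occurred in 4 of 36 tested members with a window, or 11.1%, against 13.1% of tested genes. The letters TGATGNAA, the core of a composite site for C/EBP and ATF proteins, occurred in 0 of 36, against 2.68% of tested genes. This says only that these letters are not in the windows searched. The median log2 change was -0.03 in the tested members with the ETS letters and -0.04 in those without.

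**Figure D1:**
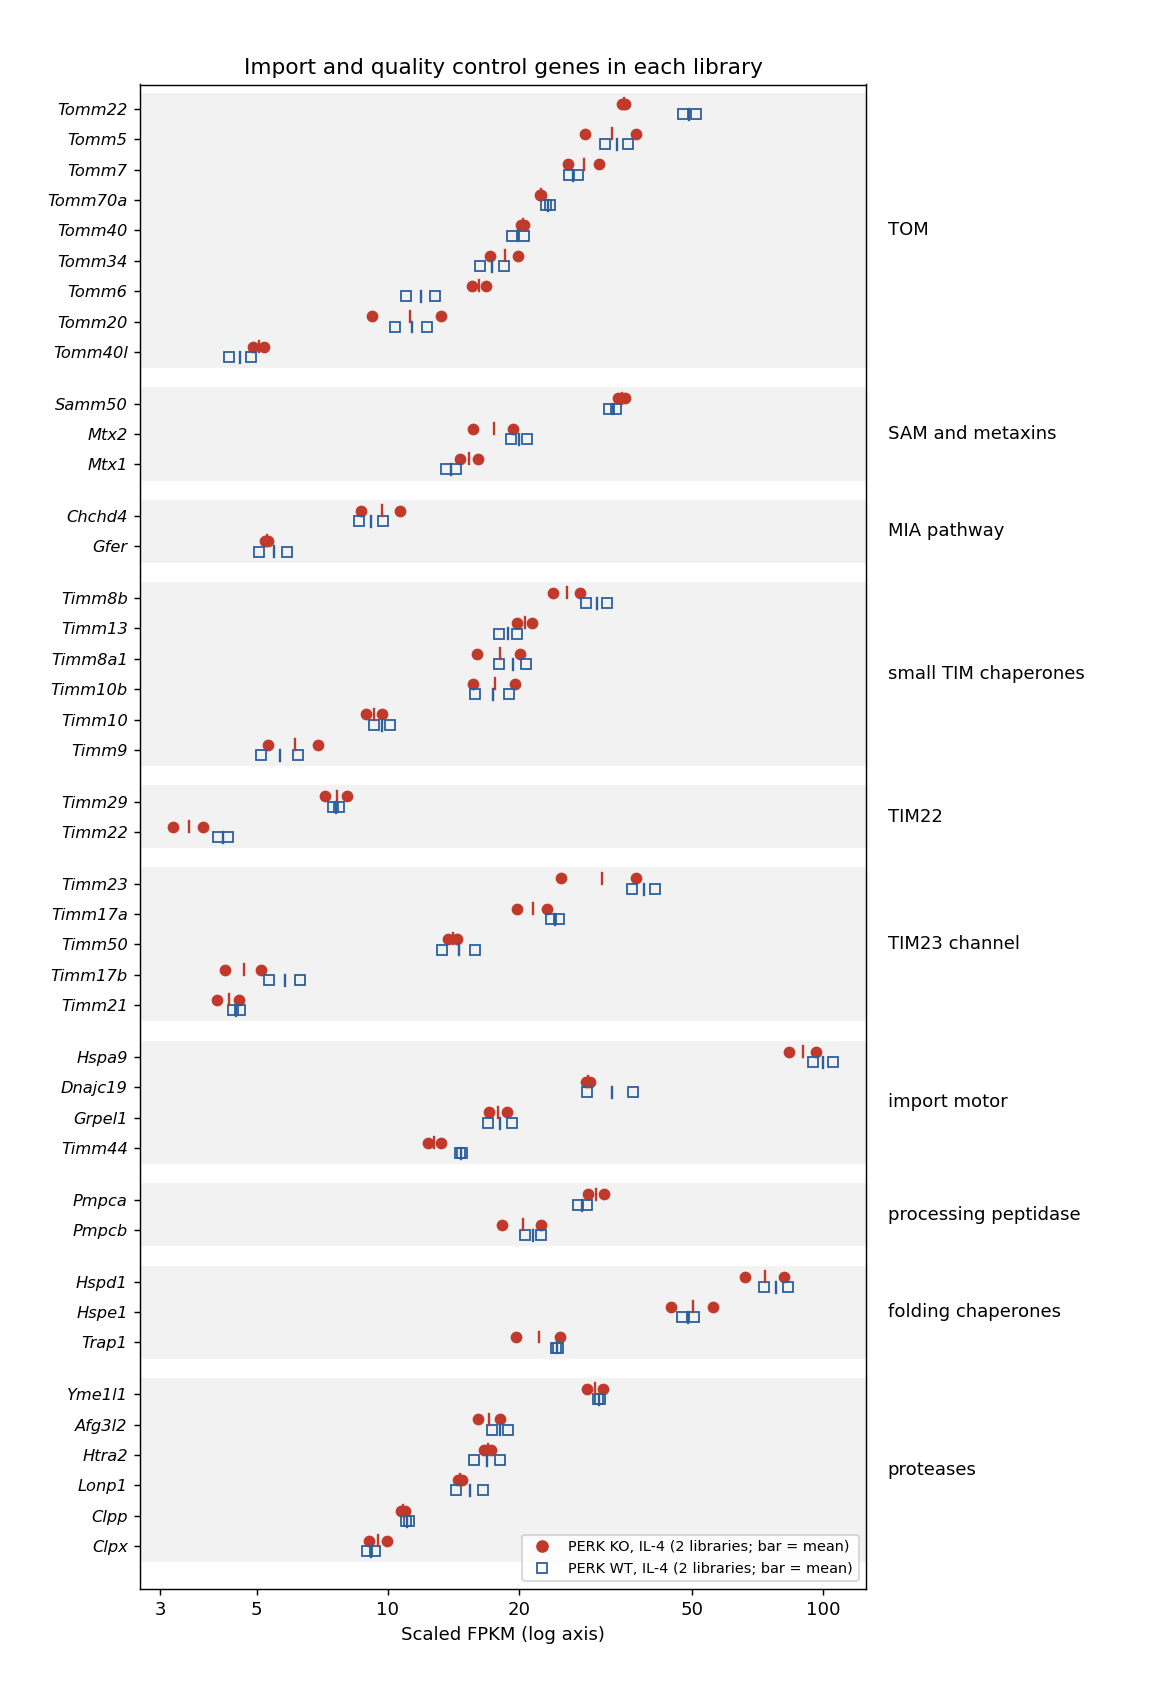
Scaled FPKM (log axis) of the 42 tested members in each library, grouped by role. Filled circles are the 2 PERK knockout libraries and open squares the 2 PERK wild-type libraries, with a bar at each mean. Tomm22 lies lower and Tomm6 higher in both knockout libraries, while most other pairs of groups touch or overlap.

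The TOM complex holds the receptors and the pore of the outer membrane, and it held the largest differences of either sign. Tomm22, the central receptor that joins the pores into a complex, measured 35.1 and 34.5 FPKM in knockout, against 47.5 and 51.0 FPKM in wild type. It was the most abundant TOM gene in the wild-type libraries, and its groups lay well apart. The log2 change was -0.49 (SE 0.10, 95% interval -0.73 to -0.24), which ranked 22 among 9501 genes by limma p. It did not pass adjustment over all genes (limma adjusted p = 0.999). Over the 12 other settings its change ran from -0.64 to -0.44, with an unadjusted p under 0.05 in all 12 and adjusted p-values from 0.575 to 1.

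Tomm6, a small subunit that helps to hold the complex together, stood on the other side. It measured 15.6 and 16.8 FPKM in knockout, against 12.8 and 11.0 FPKM in wild type. Both knockout libraries lay above both wild-type libraries, and the log2 change was 0.41 (SE 0.12, limma adjusted p = 0.999). The unadjusted p was under 0.05 in 9 of the 12 other settings, with log2 changes from 0.27 to 0.51 and adjusted p-values from 0.776 to 1. In the GENCODE M21 annotation, Tomm6 overlaps the readthrough gene Gm21981 on the same strand and Usp49 on the other strand. The part of reads from these genes in its value was not tested.

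Tomm40, the channel-forming barrel of the pore, measured 20.2 and 20.6 FPKM in knockout, against 19.3 and 20.5 FPKM in wild type, and the groups overlapped. Within a library, where scaling cancels, the ratio of Tomm22 to Tomm40 was 1.74 and 1.68 in knockout, against 2.46 and 2.49 in wild type. The ratio of Tomm6 to Tomm40 was 0.769 and 0.815 in knockout, against 0.663 and 0.538 in wild type. Both ratios differed between the genotypes without overlap, the first by far more than between the libraries of a genotype. Tomm40 was chosen for them after the values were seen. As it was nearly level, the ratios restate the differences of Tomm22 and Tomm6 and are no separate evidence. Among all tested genes, 15% were higher and 14.1% lower in knockout without overlap.

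The other TOM genes had smaller differences. Tomm40l, a close relative of Tomm40, was given by the naming rule and measured 4.92 and 5.21 FPKM in knockout, against 4.33 and 4.84 FPKM in wild type, a log2 change of 0.12 (-0.01 in the deposited values). Its groups were separate but close. Tomm70a, the receptor for carrier proteins that arrive with cytosolic chaperones, had a ratio to Tomm40 of 1.10 and 1.09 in knockout, against 1.20 and 1.15 in wild type. Tomm20, the presequence receptor, varied within each genotype, at 9.23 and 13.2 FPKM in knockout and 10.4 and 12.3 FPKM in wild type. The small subunit genes Tomm5 and Tomm7 and the cytosolic co-chaperone gene Tomm34 also had overlapping groups. Of the 9 tested TOM genes, 5 lay above 0 on the log2 scale and 4 below, and their median change was 0.03.

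**Figure D2:**
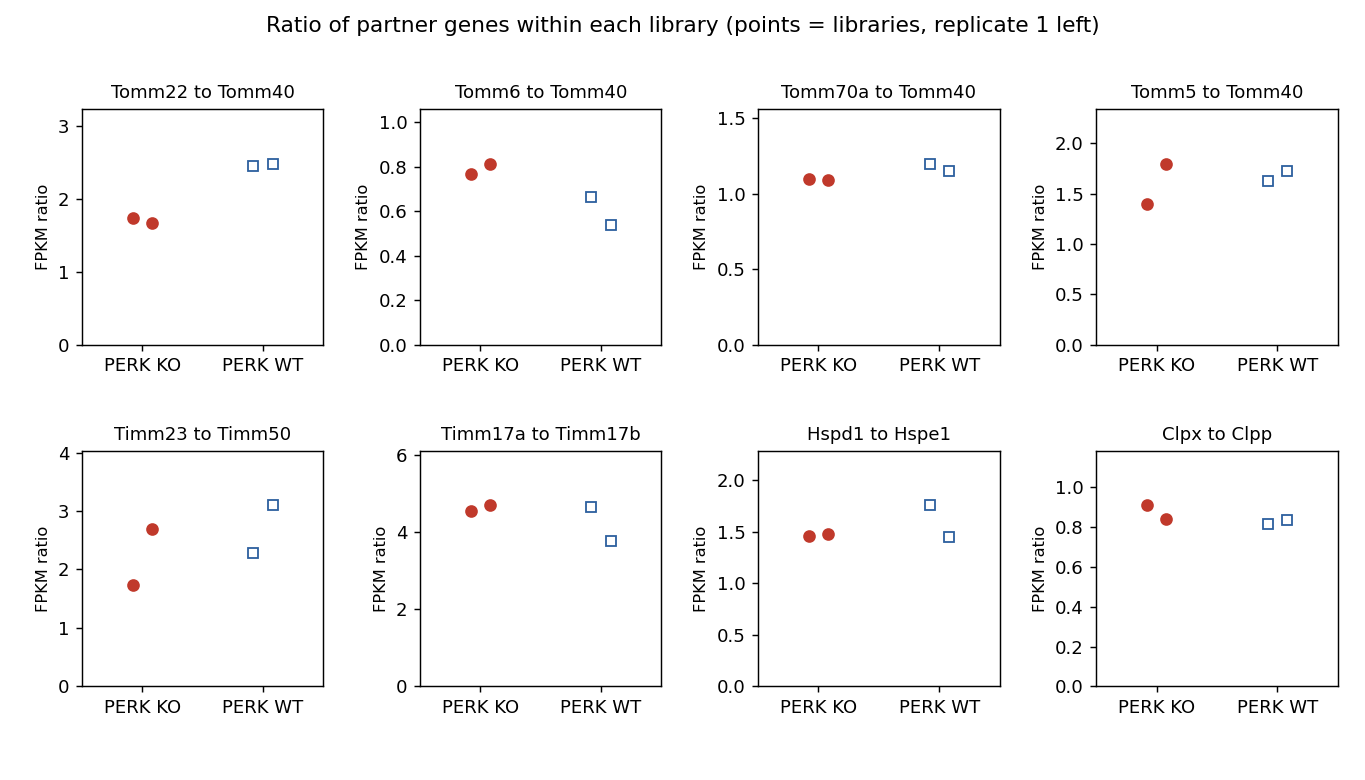
Ratio of the scaled FPKM of partner genes within each library, with PERK knockout at left and PERK wild type at right and each axis starting at 0. The ratio of Tomm22 to Tomm40 is 1.74 and 1.68 in knockout and 2.46 and 2.49 in wild type, while the ratios in the lower row lie close together or overlap.

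Because Tomm22 lies on chromosome 15, as do both genes that passed the threshold in this comparison, the genes around it were also described, a choice made after its values were seen. Rpl3, a ribosomal protein gene, and Smdt1, a regulator of the calcium uniporter, were listed in neither knockout library, against 159 and 170.1 FPKM for Rpl3 and 46.7 and 52.8 FPKM for Smdt1 in wild type. Both calls thus rest on absent rows set to 0, and 0 genes passed when only genes listed in all 4 libraries were kept. Why these rows are absent was not tested. Rpl3 starts 407 kb and Smdt1 2675 kb from the start of Tomm22. Of 127 other tested genes that start within 5 Mb, 10 had an unadjusted limma p under 0.05, 6 higher and 4 lower, or 7.87%, against 3.15% of all tested genes. Rpl3 and Smdt1, which led to this choice, are among those 10, so the share is not independent of the choice. Within 0.5 Mb, 1 of 16 other tested genes had such a p, or 6.25%, and it was Rpl3. The nearest neighbours on either side had overlapping groups. Cby1, 11.8 kb before Tomm22, measured 4.98 and 3.52 FPKM in knockout, against 4.98 and 4.62 FPKM in wild type. Josd1, 3.38 kb after, measured 8.25 and 9.05 FPKM in knockout, against 7.96 and 9.61 FPKM in wild type. No gene overlaps Tomm22 in the annotation. The part of this neighbourhood in the Tomm22 value was not tested.

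The 250 bases before its start (chr15:79670618-79670867, GRCm38.p6, plus strand) are shown because Tomm22 carries the largest decrease among the members. Capitals mark 2 overlapping ETS matches on opposite strands, 47 and 44 bases before the start, and neither of the other motifs was found in it.

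Tomm22: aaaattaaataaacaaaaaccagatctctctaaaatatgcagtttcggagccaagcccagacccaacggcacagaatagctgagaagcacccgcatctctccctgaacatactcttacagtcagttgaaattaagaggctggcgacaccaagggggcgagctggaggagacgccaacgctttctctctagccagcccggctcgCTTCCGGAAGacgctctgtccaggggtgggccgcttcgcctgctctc

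**Figure D3:**
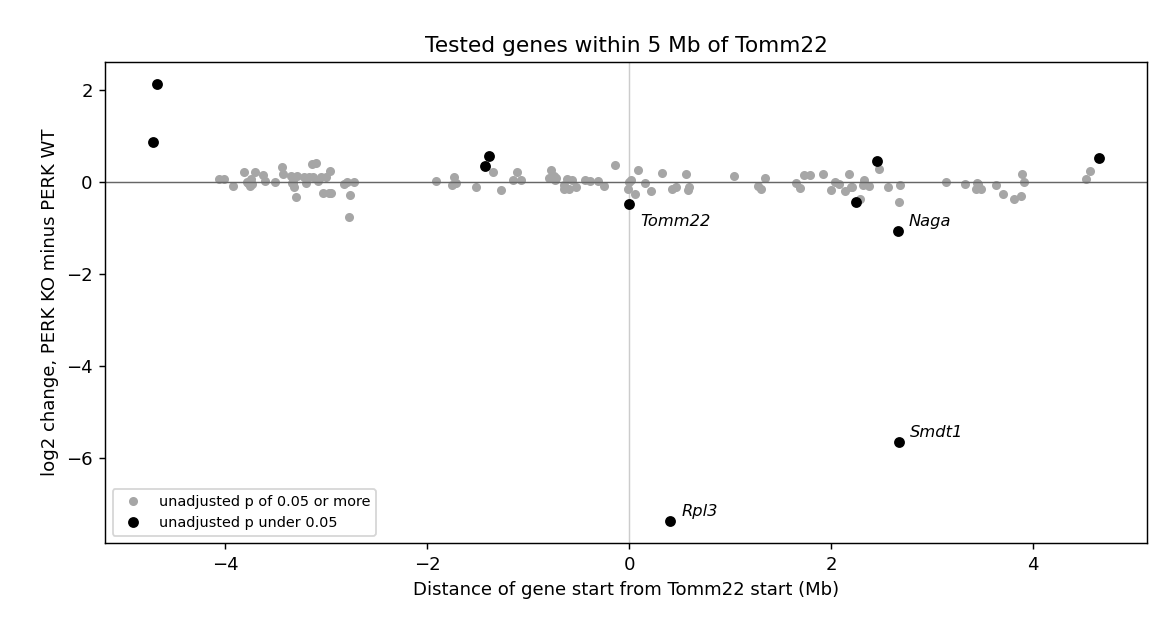
The log2 change of each tested gene, PERK knockout minus PERK wild type, against the distance of its start from that of Tomm22 (Mb). Black points have an unadjusted limma p under 0.05. Rpl3 and Smdt1 are listed at 0 in both knockout libraries, so the size of their plotted change depends on the constant added before the log.

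Barrel proteins leave TOM for the SAM complex. Samm50, the SAM channel, measured 35.0 and 33.8 FPKM in knockout, against 33.4 and 32.3 FPKM in wild type. Mtx1, a metaxin on the cytosolic face of SAM, measured 14.7 and 16.1 FPKM in knockout, against 14.3 and 13.6 FPKM in wild type. Both genes were marginally higher in knockout without overlap, with log2 changes of 0.07 and 0.13, and both turned negative in the deposited values (-0.08 and -0.02). Mtx2, the partner of Mtx1, measured 19.4 and 15.7 FPKM in knockout, against 19.1 and 20.9 FPKM in wild type, and only knockout replicate 2 was low. The ratio of Mtx1 to Mtx2 was 0.756 and 1.02 in knockout, against 0.750 and 0.653 in wild type.

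The MIA pathway, which traps proteins in the intermembrane space by forming disulfides, showed overlapping groups for both genes. Chchd4, the import oxidase, measured 10.7 and 8.69 FPKM in knockout, against 8.60 and 9.74 FPKM in wild type. Gfer, which reoxidises it, measured 5.32 and 5.22 FPKM in knockout, against 5.07 and 5.87 FPKM in wild type. Their log2 changes were 0.07 (95% interval -0.30 to 0.43) and -0.04 (95% interval -0.37 to 0.29).

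Small TIM chaperones escort carriers and other membrane proteins across the intermembrane space, and 3 of the 6 tested lay above 0 and 3 below. Timm8b, the most abundant, measured 27.6 and 24.0 FPKM in knockout, against 28.6 and 31.9 FPKM in wild type, a log2 change of -0.22 with SE 0.12 (adjusted p = 0.999, limma). Its groups did not overlap, and the change was -0.32 without knockout replicate 1 and -0.12 without knockout replicate 2. Timm13 measured 19.8 and 21.4 FPKM in knockout, against 19.8 and 18.0 FPKM in wild type. That is a log2 change of 0.12, or -0.03 in the deposited values. Timm8a1, the partner of Timm13, measured 20.1 and 16.1 FPKM in knockout, against 20.8 and 18.0 FPKM in wild type. In Timm8a1 the groups overlapped, and in Timm13 they were separate by a narrow margin, while Timm9, Timm10 and Timm10b had overlapping groups too.

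The TIM22 complex inserts carriers into the inner membrane. Its channel gene Timm22 had the lowest level of all tested members, with 3.22 and 3.76 FPKM in knockout, against 4.30 and 4.08 FPKM in wild type. Both knockout libraries were lower, and the log2 change was -0.21 (SE 0.14, limma adjusted p = 0.999). Timm29, a subunit that links TIM22 to TOM, measured 7.19 and 8.08 FPKM in knockout, against 7.50 and 7.73 FPKM in wild type, and the genotypes overlapped.

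All 5 genes of the TIM23 channel, the gate for proteins with a presequence, lay below 0 on the log2 scale, with a median of -0.17, and 0 of them passed. Of all tested genes, 51.2% lay below 0. Timm23, the channel core, measured 25.0 and 37.1 FPKM in knockout, against 36.4 and 41.2 FPKM in wild type. Only knockout replicate 1 was low, and knockout replicate 2 lay inside the wild-type range. The log2 change of Timm23 was -0.34 (SE 0.20, 95% interval -0.86 to 0.18), the widest interval among the members, and it ran from -0.62 to -0.06 when single libraries were left out. Its limma adjusted p was 0.999, with 0.776 to 1 over the other settings, and the unadjusted p was under 0.05 in 2 of those 12.

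The Tim17 paralogs form the other part of the channel. Timm17a, whose protein is degraded under stress in other cells, measured 23.3 and 19.8 FPKM in knockout, against 24.8 and 23.8 FPKM in wild type. Timm17b measured 5.12 and 4.23 FPKM in knockout, against 5.33 and 6.31 FPKM in wild type. Both genes had both knockout libraries below both wild-type libraries, with log2 changes of -0.17 (limma adjusted p = 0.999) and -0.26 (limma adjusted p = 0.999). With single libraries left out, Timm17a ran from -0.28 without knockout replicate 1 to -0.06 without knockout replicate 2, and Timm17b from -0.38 to -0.15 in the same order. Their balance overlapped, since the ratio of Timm17a to Timm17b was 4.54 and 4.69 in knockout, against 4.65 and 3.77 in wild type. Timm50, the receptor of the channel, and Timm21, which links it to TOM, had log2 changes of -0.04 and -0.05 with overlapping groups.

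The import motor pulls the chain into the matrix. Its 4 member genes also lay below 0, with a median of -0.16, where 51.2% of all tested genes lay below. Hspa9, the mitochondrial HSP70 that drives the motor, was the most abundant member of all and measured 96.3 and 83.4 FPKM in knockout, against 105.2 and 94.6 FPKM in wild type. Its groups overlapped, and the log2 change was -0.15 (95% interval -0.47 to 0.16). It was -0.26 without knockout replicate 1 and -0.05 without knockout replicate 2. Timm44, which tethers HSP70 to the channel, measured 12.4 and 13.2 FPKM in knockout, against 14.8 and 14.6 FPKM in wild type. Both knockout libraries were lower, by a log2 change of -0.19 with SE 0.10 (adjusted p = 0.999, limma). In the deposited values it was -0.33. Dnajc19, a co-chaperone of the motor, measured 28.5 and 29.2 FPKM in knockout, against 28.7 and 36.7 FPKM in wild type, where wild-type replicate 2 stood above the rest. Grpel1, the nucleotide exchange factor, had a log2 change of -0.02.

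The processing peptidase removes presequences. Pmpca, its alpha subunit, measured 31.3 and 28.8 FPKM in knockout, against 28.7 and 27.3 FPKM in wild type, and Pmpcb, the catalytic subunit, measured 22.5 and 18.3 FPKM in knockout, against 20.7 and 22.5 FPKM in wild type. Their log2 changes, 0.10 and -0.08, were of opposite sign, with groups that were separate by a narrow margin in Pmpca and overlapped in Pmpcb. In the deposited values Pmpca was at -0.05.

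The folding chaperones HSP60 and HSP10, encoded by Hspd1 and Hspe1, form the matrix folding chamber and are textbook markers of the mitochondrial unfolded protein response. Hspd1 measured 81.2 and 66.2 FPKM in knockout, against 83.1 and 73.1 FPKM in wild type. Hspe1 measured 55.7 and 44.7 FPKM in knockout, against 47.3 and 50.4 FPKM in wild type. The genes overlap head to head on opposite strands of chromosome 1, and their ratio was 1.46 and 1.48 in knockout, against 1.76 and 1.45 in wild type. Trap1, the mitochondrial HSP90, measured 24.8 and 19.7 FPKM in knockout, against 24.6 and 24.3 FPKM in wild type. All 3 were lowest in knockout replicate 2, and knockout replicate 1 lay within or above the wild-type range. Their log2 changes were -0.09, 0.03 and -0.14, and 0 of 3 passed.

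All 6 proteases had changes between -0.08 and 0.05 on the log2 scale. Lonp1, the ATP-dependent protease of the matrix, measured 14.8 and 14.5 FPKM in knockout, against 16.5 and 14.3 FPKM in wild type. Clpp and Clpx, the proteolytic and unfolding subunits of the other soluble matrix protease, measured 10.9 and 10.8 FPKM (Clpp) and 9.98 and 9.05 FPKM (Clpx) in knockout, against 11.0 and 11.2 FPKM (Clpp) and 8.96 and 9.33 FPKM (Clpx) in wild type. The groups overlapped in Lonp1 and Clpx, and in Clpp both knockout libraries were lower by a narrow margin.

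The remaining 3 proteases had overlapping groups. Afg3l2, a subunit of the protease facing the matrix, measured 18.1 and 16.2 FPKM in knockout, against 18.9 and 17.3 FPKM in wild type. Yme1l1, the protease facing the intermembrane space, measured 31.2 and 28.7 FPKM in knockout, against 30.4 and 30.8 FPKM in wild type. Htra2, a soluble protease of the intermembrane space, measured 17.2 and 16.7 FPKM in knockout, against 15.7 and 18.1 FPKM in wild type. The 95% intervals of the 6 proteases spanned -0.36 to 0.33.

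**Figure D4:**
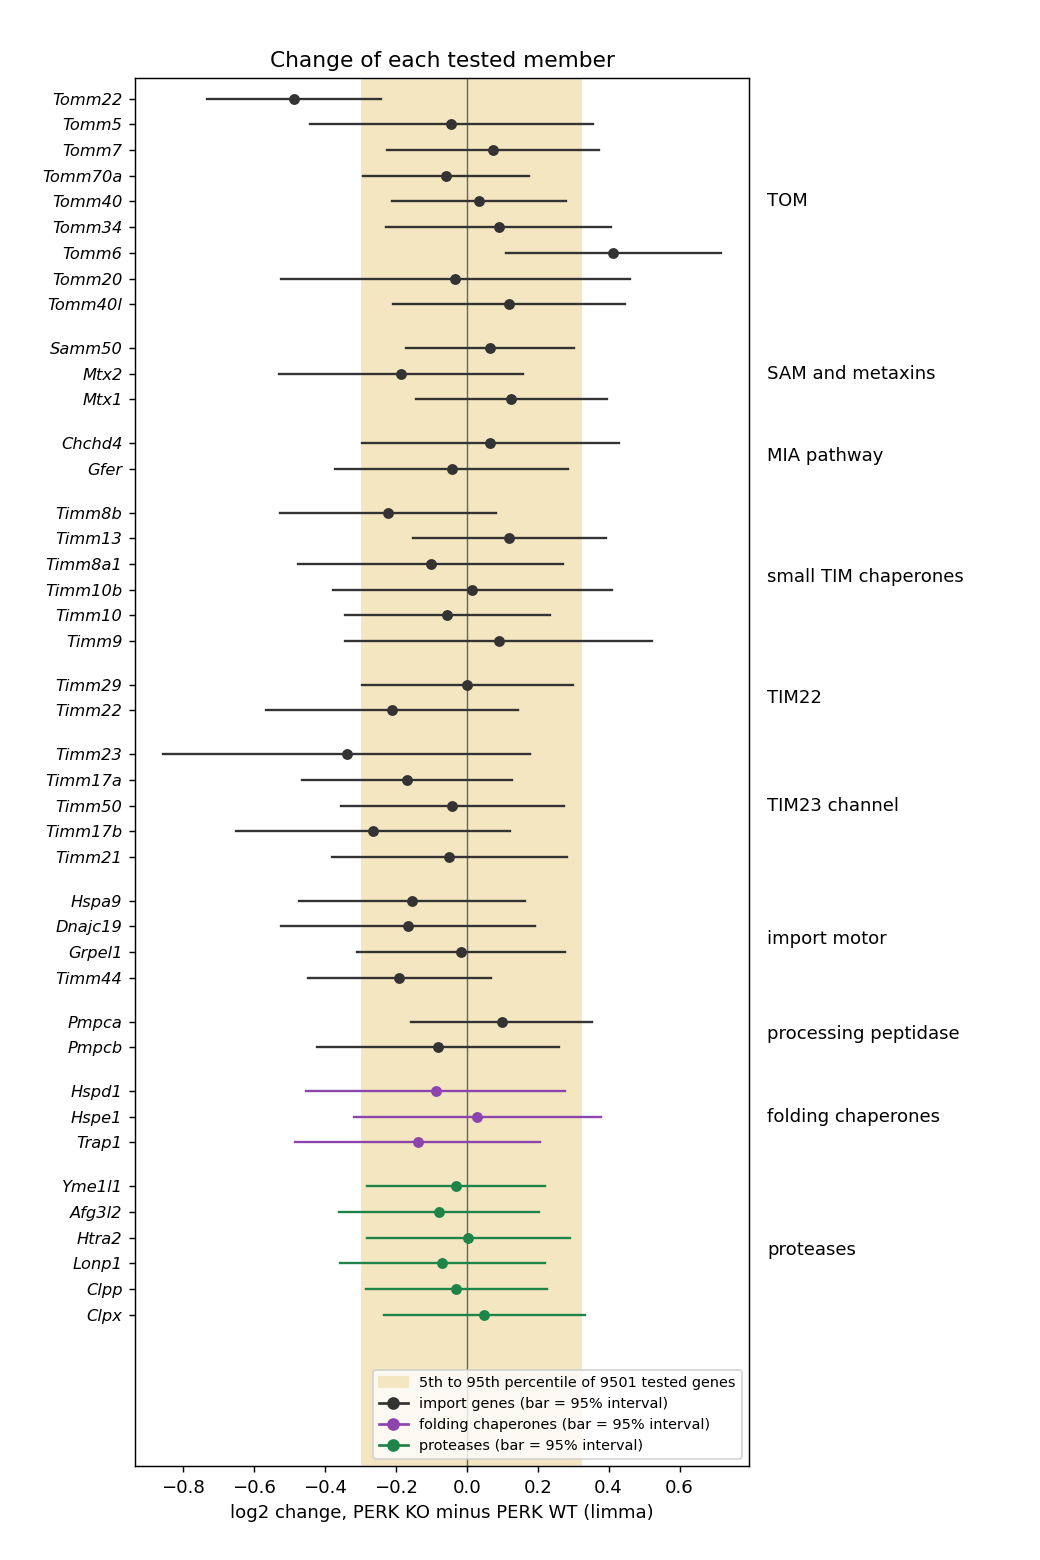
The log2 change of each tested member, PERK knockout minus PERK wild type, with its 95% interval from limma. The shaded band holds the 5th to 95th percentile of all 9501 tested genes (-0.30 to 0.32). Tomm22 and Timm23 lie below the band and Tomm6 above it, and the points of all 6 proteases lie inside it.

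Set side by side, import and protease genes did not part from each other by more than libraries of a genotype did. Relative to each gene's own mean, the median import gene stood at -0.009 and -0.018 on the log2 scale in knockout, against -0.015 and 0.047 in wild type. The median protease gene stood at 0.031 and -0.043 in knockout, against 0.005 and 0.012 in wild type. Protease minus import was therefore 0.041 and -0.025 in knockout, against 0.020 and -0.035 in wild type, so the 2 genotypes overlapped. The import genes summed to 658 and 654 FPKM in knockout, against 686 and 705 FPKM in wild type, and the proteases to 102 and 95.8 FPKM in knockout, against 101.5 and 101.1 FPKM in wild type.

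The knockout values were separate from and lower than the wild-type values in 8 of 42 members, and separate and higher in 6, against 14.1% and 15% of all tested genes. In the deposited values the counts were 20 below and 1 above, against 35.6% and 4.14% of all tested genes. Knockout replicate 2 was the lowest of the 4 libraries in 15 of 42 members and the highest in 11, against 2609 and 2688 of all 9501 tested genes. The replicates of a genotype differed by a median of 0.14 on the log2 scale in knockout and 0.12 in wild type over the members, against 0.16 and 0.15 over all tested genes.

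Other genes of the same pathway were read in the same way. Of 46 genes on 6 lists covering further import factors, presequence processing, proteases and their scaffolds, folding, outer membrane control with mitophagy, and mitochondrial stress signalling, 43 were tested and 0 passed (limma, lowest adjusted p = 0.999). The share past the threshold was 0.0211% of all tested genes. At an unadjusted p under 0.05, 0 were higher and 2 lower, against 1.87% and 1.27% of all tested genes. Pam16, a regulatory subunit of the import motor, measured 1.42 and 2.04 FPKM in knockout, against 3.39 and 3.52 FPKM in wild type, a log2 change of -0.72 with SE 0.18 (adjusted p = 0.999, limma). Its groups were well apart, at a low level. Of the 12 tested further import factors, 6 lay above 0 and 6 below, from -0.72 in Pam16 to 0.21 in Romo1. Gdf15, a secreted factor induced by ATF4 and CHOP, measured 5.52 and 5.34 FPKM in knockout, against 10.7 and 6.97 FPKM in wild type (limma adjusted p = 0.999). The 6 tested stress signalling genes were split, 3 above 0 and 3 below. Ddit3, the CHOP gene, had a log2 change of 0.14 and Atf4 one of -0.18. Of the tested genes on these lists, 21 lay above 0 on the log2 scale and 22 below.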

How the data were processed

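Stranded, randomly primed libraries were made after removal of ribosomal RNA, per the labels' protocols. The authors deposited 1 FPKM table per library. HISAT, StringTie, Bowtie2, RSEM and the build mm10 are named, without roles, in the submitters' processing notes. The annotation, the use of strand in counting and the depth are not given in the sources used here, so no counting intervals are given. A gene absent from a table was set to 0, and the smallest listed value was 0.01 FPKM.

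Symbols came from RefSeq GRCm38.p6 (15094 of 15114 Entrez numbers matched). Values were median-ratio scaled, put on the log2(FPKM + 1) scale and tested two-sided with limma 3.58.1 in R 4.3.3, with a mean-variance trend and Benjamini-Hochberg adjustment over 9501 genes whose deposited mean reached 1 FPKM (threshold 0.05). Such fold changes understate those of low genes. An exact permutation test of 2 against 2 cannot go below p = 0.333. The procedure was tested on simulated data. Intervals are 95% intervals from limma.

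Members and lists were chosen with earlier results of these data known. Named were all members of role groups of up to 3, all proteases, and in larger groups the 3 with the smallest p and the most abundant. Tomm40, Tomm20, Tomm70a, the other members given by name and the genes near Tomm22 were chosen after their values were seen. Unstimulated macrophages are not analysed here. Alternatives covered scaling, the added constant, the minimum, the trend, a replicate block and each library left out.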

Additional observations from a re-analysis of the deposited data

How the results depend on the processing

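Under all 12 alternative settings 0 members passed the threshold (limma), and the lowest adjusted p of a named member was 0.575. The number of all genes past it was 2, but 0 when only genes listed in all 4 libraries were kept, and 2 to 7 when single libraries were left out, with 7 without wild-type replicate 2. The import median was -0.17 in the deposited values (-0.03 relative to all genes) and -0.0783 to 0.0061 with single libraries left out. The protease median was -0.17 in the deposited values (-0.03 relative to all genes) and -0.061 to 0.0129 with single libraries left out. In the deposited values the log2 change turned negative in Hspe1 (-0.12), Chchd4 (-0.071), Mtx1 (-0.017), Samm50 (-0.083), Timm29 (-0.134), Tomm40l (-0.007), Pmpca (-0.05), Timm13 (-0.026), Clpx (-0.088) and Htra2 (-0.14), where all genes shifted by -0.14. With upper-quartile scaling Timm29 was at -0.002. With single libraries left out, ranges that crossed 0 were -0.126 to 0.187 for Hspe1, -0.068 to 0.202 for Chchd4, -0.014 to 0.113 for Clpx, -0.091 to 0.1 for Htra2, -0.233 to 0.058 for Hspd1, -0.296 to 0.022 for Trap1, -0.072 to 0.076 for Timm29, -0.225 to 0.063 for Pmpcb, -0.253 to 0.05 for Timm8a1, -0.088 to 0.028 for Yme1l1, -0.165 to 0.028 for Lonp1, -0.132 to 0.047 for Gfer and -0.336 to 0.006 for Dnajc19. Of 30 named members, 27 moved by over 1.5 times when a single library was left out, and Tomm22, Tomm6 and Timm44 did not. Those that moved but kept their sign ran from -0.154 to -0.002 for Afg3l2, -0.041 to -0.017 for Clpp, -0.256 to -0.051 for Hspa9, 0.063 to 0.189 for Mtx1, -0.328 to -0.042 for Mtx2, 0.039 to 0.157 for Pmpca, 0.041 to 0.091 for Samm50, 0.055 to 0.186 for Timm13, -0.278 to -0.058 for Timm17a, -0.378 to -0.151 for Timm17b, -0.297 to -0.124 for Timm22, -0.318 to -0.125 for Timm8b and 0.053 to 0.186 for Tomm40l. Timm23 was at -0.06 without knockout replicate 1 and -0.62 without knockout replicate 2. The cause was not tested. The labels do not say that replicate numbers pair libraries, and deviations of same-numbered libraries correlated at r = 0.078 over 9501 genes. A fit with the replicate block called 2 genes and 0 members, and changed no call. With 2 libraries a group and no depth given, small differences were not detectable, and moderate ones were often missed. The simulated data placed changes in genes above the median level. There 2.39% of 1.5-fold, 56.4% of 2-fold and 94.4% of 4-fold changes passed the threshold.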
